A study of Mus musculus with 6 samples.

Results

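The genes for the protein components of the cytosolic ribosome were followed in mouse leukemia cells given an inhibitor of IKK, the kinase that releases NF-kB transcription factors from their IkB inhibitors. A probe set of the array was taken as a member when its only annotated symbol was Rpl or Rps followed by a number, with at most 1 of the letters a, x or l at the end, or was Rplp0, Rplp1, Rplp2 or Rpsa. This gave 215 of the 35512 probe sets in the deposited table, or of the 21789 that carry exactly 1 symbol. They stand for 59 genes, 22 of the small subunit (84 probe sets) and 37 of the large subunit (131 probe sets). All 215 were tested.

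Total RNA was measured in a mouse cell line carrying the MLL-AF10 fusion, cultured with WEHI conditioned medium, on 6 whole-transcript Affymetrix arrays. The vehicle group and the group given 0.5 µM of the inhibitor had 3 samples each; both groups carry the fusion and were grown in the same medium. The labels name 1 line and leave unsaid whether the replicates are separate cultures; the p-values therefore speak only of the spread among these 6 samples, which could be technical. The sources used here give neither the compound's name nor the time of treatment.

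Ribosomal proteins assemble on ribosomal RNA in the nucleolus into the small subunit, which decodes the mRNA, and the large subunit, which joins amino acids into the chain. Their mRNAs are among the most abundant of a growing cell, and many begin with a C followed by a run of pyrimidines, the 5′ terminal oligopyrimidine (TOP) motif through which growth signals acting on the mTOR kinase control their translation. Transcription of these genes is known to respond to MYC, and a surplus of free RPL5 and RPL11, bound to 5S RNA, stabilises p53. Array intensity measures the amount of mRNA and not its translation.

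The members were read near the top of the measuring range. On the brightness averaged over all 6 arrays, 193 of the 215 (89.8%) lay in the brightest 10% of the probe sets tested, and single values ran from 37.1 to 5676 in a table whose highest value was 8186. Below the median brightness lay 6 members, those of Rpl10l, Rpl39l, Rpl3l, Rplp2 and Rps4l. Probe sets of 1 gene are not independent measurements: 19 members held the same 6 values as another member, which left 203 distinct patterns. Many ribosomal protein genes also have processed copies elsewhere in the genome, and whether such copies contribute to a probe set was not tested.

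The mRNAs as a group differed little between vehicle and inhibitor. Of the 215 probe sets, 12 fell and 0 rose at an adjusted p under 0.05 (limma with Benjamini-Hochberg adjustment over all probe sets tested), which is 5.58% of the members. Over all 21676 probe sets tested, 2939 (13.6%) passed this threshold, 1522 of them (7.02%) higher and 1417 (6.54%) lower. The share of members that fell was thus close to the share over the whole array, while the share that rose was below it. At an unadjusted p under 0.05, 33 members (15.3%) passed, against 27.1% of all probe sets tested. Of these, 27 members (12.6%) were lower, near the 13.7% over the array, and 6 (2.79%) were higher, below the array's 13.4%. The median log2 fold change of the members, inhibitor over vehicle, was 0.002, against 0.007 over all probe sets tested.

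The spread of the members' changes was narrow. Their quartiles lay at -0.07 and 0.05 on the log2 scale, compared with -0.09 and 0.11 over all probe sets tested, and the whole range ran from -0.72 to 0.22. The median size of a change, whichever its sign, was 0.06 for the members and 0.10 over the array, beside a median SE of 0.06 and 0.07. The 95% interval of the change lay wholly within 1.25-fold in either direction for 190 members (88.4%) and within 1.5-fold for 213 (99.1%). The same held for 57.7% and 92.6% of all probe sets tested, and for 79.0% and 97.2% of the brightest 10%. For most members a change of measured intensity of 1.25-fold or more therefore lay outside the interval that 3 arrays against 3 allowed. How closely intensity follows the amount of mRNA at this brightness was not tested.

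Since most members are bright, their count was also read against probe sets of like brightness. The median within-group SD on the log2 scale was 0.06 for the members, 0.04 for the brightest 10% and 0.09 over all probe sets tested. In the same fit, 22.6% of the 10838 probe sets at or above the median brightness and 19.0% of the 2168 in the brightest 10% were called, and 7.33% of the latter were called lower. When the fit was restricted to those 10838 probe sets, 4221 of them (38.9%) were called, and with them 27 of the 209 members that remained (12.9%), 22 lower and 5 higher. The number of called members thus moved by over 1.5 times with the set of probe sets tested, and their share stayed under the share of all probe sets in that fit.

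**Figure D1:**
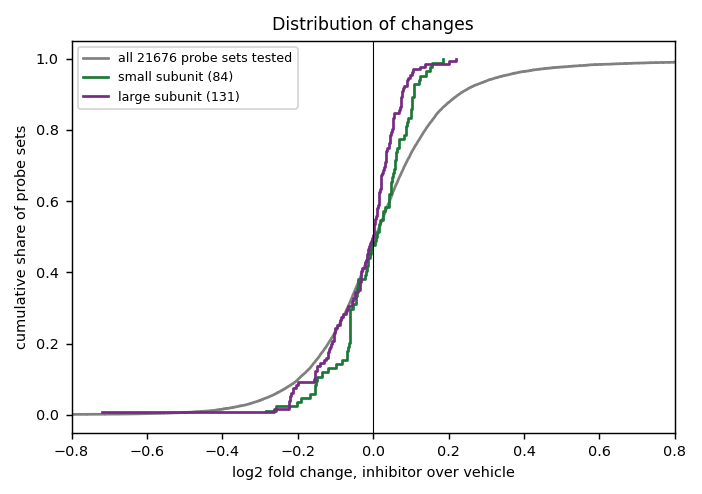
Cumulative share of probe sets (vertical axis) against the log2 fold change of inhibitor over vehicle (horizontal axis, shown from -0.8 to 0.8) for the small subunit members, the large subunit members and all probe sets tested. The curves cross near 0. Above 0 both subunit curves rise faster than that of the 21676 probe sets, with upper quartiles of 0.06 (small), 0.04 (large) and 0.11 (all). The lower quartile of the large subunit, -0.09, is that of all probe sets, and that of the small subunit is -0.06.

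The arrays of the groups were also compared without a model. All 3 inhibitor arrays lay below all 3 vehicle arrays for 38 members (17.7%), beside 17.1% of all probe sets tested. All 3 lay above for 17 members (7.91%), beside 15.9% of all probe sets. Among the brightest 10% of probe sets the groups were apart downward for 27.9% and upward for 28.9%, so both shares of the members lay below those of probe sets of like brightness. The small subunit had 12 members apart downward (14.29%) and 11 apart upward (13.1%), and the large subunit had 26 (19.85%) and 6 (4.58%). These counts rest on a few genes with many probe sets. Rpl36, Rpl23a and Rpl13 gave 9, 7 and 5 of the 26, and Rps6 gave 8 of the 11. Rps4x and Rpsa gave 5 and 3 of the 12, and Rpl21 gave 3 of the 6.

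The medians of the small and the large subunit differed by less than the spread between arrays. Of 84 small subunit probe sets 3 fell (3.57%), and of 131 large subunit probe sets 9 fell (6.87%), of which 7 belong to the single gene Rpl36. The median log2 fold change was 0.008 for the small and -0.001 for the large subunit. On each array the small subunit median minus the large subunit median, taken as deviations from the vehicle mean, was -0.005, 0.013 and -0.028 in vehicle and -0.029, 0.019 and 0.085 with the inhibitor. The difference of 0.010 between the subunit medians stood beside an SD of 0.043 between arrays. Inhibitor array 3 stood highest in this measure and the remaining arrays of both groups overlapped. The interval lay within 1.25-fold for 77 of the 84 small subunit members and 113 of the 131 large subunit members.

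The members' median level varied more among the arrays of a group than between the groups. Inhibitor array 3 gave the highest value of the 6 for 97 members (45.1%) and vehicle array 3 for 87 (40.5%), compared with 22.5% and 15.4% of all probe sets tested. Vehicle arrays 1 and 2 were highest for 16 and 5 members, and inhibitor arrays 1 and 2 for 8 and 2. The median deviation of the members from the vehicle mean was -0.02, -0.02 and 0.04 on the vehicle arrays and -0.01, -0.05 and 0.05 on the inhibitor arrays. The highest array of each group thus lay above the other 4 arrays, and the groups overlapped.

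**Figure D2:**
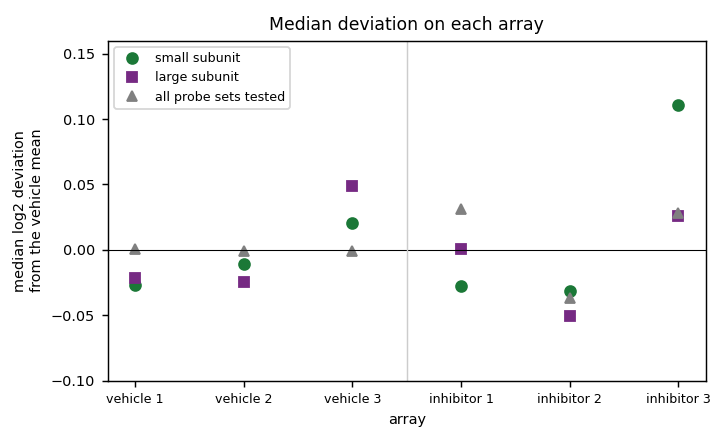
Median log2 deviation from the vehicle mean (vertical axis) on each of the 6 arrays (horizontal axis), for small subunit members (circles), large subunit members (squares) and all probe sets tested (triangles). The small subunit reaches 0.11 on inhibitor array 3, and both subunits are above 0 on vehicle array 3 and inhibitor array 3.

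The calls came from 6 genes: Rpl12, Rpl36 and Rplp1 of the large subunit and Rps3, Rps4x and Rpsa of the small subunit. All probe sets were called for Rpl12 and Rps3, each with 1 probe set. The promoter starts of the 4 of these genes with an entry in the RefSeq table (build GRCm38.p6) are printed for comparison with those of genes that did not fall. Each runs 5′ to 3′ on the gene's strand from 60 bases before the annotated start to 20 bases from it, and capitals would mark a run of 8 or more C or T that begins with C within 20 bases of the start. None of these 4 genes has such a run within 20 bases of its start. Rpsa has one further upstream, outside the stretch searched. Rpl36 and Rplp1 had no entry. Of the 47 member genes with an entry, 20 have such a run, and whether lacking it goes with a fall was not tested.
Rpl12 (chr2:32961652-32961731, plus strand): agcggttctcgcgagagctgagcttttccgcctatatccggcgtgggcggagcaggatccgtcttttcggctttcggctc
Rps3 (chr7:99483690-99483769, minus strand): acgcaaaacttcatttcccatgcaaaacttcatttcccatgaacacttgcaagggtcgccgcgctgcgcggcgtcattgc
Rps4x (chrX:102189372-102189451, minus strand): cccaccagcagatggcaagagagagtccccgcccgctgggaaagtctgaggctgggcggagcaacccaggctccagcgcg
Rpsa (chr9:120127706-120127785, plus strand): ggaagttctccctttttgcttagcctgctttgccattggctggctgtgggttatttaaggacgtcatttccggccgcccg

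The next 4 windows belong to Rps6, whose probe sets all lay higher with the inhibitor without passing the threshold, and to Rps25, Rpl9 and Rpl27a, whose median changes were nearest 0 among the genes with at least 5 probe sets. Rps6 has a run of 10 pyrimidines at its start, Rps25 a marked run of 11 and Rpl27a a run of 20 near the start, and Rpl9 has none. In Rps25 the pyrimidines continue upstream of the capitals, past the edge of the stretch searched, so that the whole run is longer.
Rps6 (chr4:86857348-86857427, minus strand): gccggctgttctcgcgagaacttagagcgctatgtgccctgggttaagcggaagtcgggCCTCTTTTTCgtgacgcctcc
Rps25 (chr9:44407654-44407733, plus strand): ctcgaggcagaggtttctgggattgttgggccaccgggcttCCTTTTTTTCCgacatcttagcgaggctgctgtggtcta
Rpl9 (chr5:65391412-65391491, minus strand): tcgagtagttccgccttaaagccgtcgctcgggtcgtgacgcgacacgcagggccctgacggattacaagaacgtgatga
Rpl27a (chr7:109519135-109519214, plus strand): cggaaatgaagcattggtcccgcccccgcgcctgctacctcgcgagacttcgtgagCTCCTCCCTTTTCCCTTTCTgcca

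Promoter entries were found for 47 of the 59 genes. The start base was a C followed by 4 or more C or T in 10 of the 47 (21.3%), among them Rps6, Rps18, Rpl28 and Rplp2, and in 813 of the 27025 genes of the table (3.01%). A run of 8 or more pyrimidines beginning with C lay within 20 bases of the start in 20 of the 47 (42.6%), against 14.5% of all genes. Since an annotated start can differ from the base at which most mRNAs begin, these counts describe the annotation and not the mRNAs of these cells. In the window from 250 bases before to 50 bases from the start, searched on both strands, ACTTCCG, the core to which GABPA and other ETS factors bind, occurred in 17 of the 47 promoters (36.2%), including those of Rps3, Rpsa and Rps6, against 7.20% of all. The MYC core CACGTG occurred in 5 (10.6%) against 8.09%, TATAAA in 6 (12.8%) against 15.7%, and the NF-kB kappaB consensus in 1, Rps19 (2.13%), against 5.14%. A match is a run of letters and no evidence of binding.

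Rpl12, whose protein sits at the base of the ribosomal stalk, had the largest fall. Its intensity was 281, 303 and 293 on the vehicle arrays and 158, 190 and 186 on the inhibitor arrays (probe set 10471550). The groups did not overlap, and the log2 fold change was -0.72 ± 0.08 (SE, n = 3 per group), with a limma adjusted p of 0.00274. The annotation of this probe set holds a single mRNA record that is no curated RefSeq mRNA. It is also far dimmer than most members, so that it may report less than the whole Rpl12 mRNA; this was not tested. The call was made in 21 of 21 alternative settings.

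Rps3 encodes a protein at the mRNA entry of the small subunit that is also known to bind the NF-kB subunit p65. Its probe set (10565802) gave 2267, 2159 and 2161 with vehicle and 1840, 1836 and 1833 with the inhibitor. All 3 inhibitor values lay below the vehicle values, and the 3 were within an SD of 3.74 of each other, compared with 62.0 in vehicle. The log2 fold change was -0.26 ± 0.05 (SE, n = 3 per group; limma adjusted p = 0.0159).

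Rplp1, an acidic stalk protein that recruits translation factors, had 2 probe sets. The brighter one (10594248) gave 5193, 5117 and 5173 with vehicle and 4434, 4397 and 4084 with the inhibitor, a log2 fold change of -0.26 ± 0.05 (limma adjusted p = 0.0211). The other lay apart in the same direction at -0.20, with an adjusted p of 0.0700, and was not called. The other stalk genes were not called. Rplp0, the protein that anchors the stalk, had 2 probe sets at -0.02 and -0.03, with 95% intervals reaching from -0.15 to 0.10. Rplp2 was dim, at 42.2, 41.5 and 42.6 in vehicle and 44.6, 46.1 and 43.9 with the inhibitor, and its probe set holds no curated RefSeq mRNA; its log2 fold change was 0.09 (interval -0.02 to 0.20).

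Rpl36, a small protein of the large subunit, had 9 probe sets that lay close together. The first (10378783) gave 2768, 2769 and 2789 with vehicle and 2298, 2344 and 2490 with the inhibitor, with a log2 fold change of -0.22 ± 0.05 (limma adjusted p = 0.0326). All 9 lay between -0.20 and -0.22 with every inhibitor array below every vehicle array. Of the 9, 7 passed the threshold, with adjusted p up to 0.0446, and the other 2 had 0.0658 and 0.0949. None of the 9 was called with median centring, where adjusted p ran from 0.0654 to 0.0970, or when all probe sets of the table were tested (0.0614 to 0.15).

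Rps4x, the X-linked copy of a small subunit protein gene, had 5 probe sets between -0.15 and -0.19, all with groups apart. The one that passed (10484357) gave 2616, 2635 and 2694 with vehicle and 2288, 2383 and 2281 with the inhibitor, at -0.19 ± 0.05 (limma adjusted p = 0.0409). The other 4 had adjusted p from 0.0650 to 0.0784. The called probe set missed the threshold with median centring (0.130) and with all probe sets of the table (0.0728). Passing or missing the threshold thus separated probe sets of nearly the same change.

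The 5 probe sets of Rpsa disagreed most, with a range of 0.33 between them. RPSA is a small subunit protein also described as a laminin receptor. The called probe set (10385034) gave 1566, 1602 and 1625 with vehicle and 1258, 1320 and 1363 with the inhibitor, at -0.28 ± 0.05 (limma adjusted p = 0.0162). The brightest Rpsa probe set gave 2701, 2906 and 2838 with vehicle and 2827, 2782 and 3129 with the inhibitor, at 0.05 with overlapping groups. The others lay at -0.05, -0.15 and -0.20, with adjusted p of 0.720, 0.143 and 0.101. Which of them follows the Rpsa mRNA most closely was not tested.

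Apart from that of Rpl12, the calls were lost when some of the arrays were left out. Without vehicle replicate 1, vehicle replicate 2, vehicle replicate 3 or inhibitor replicate 1 there were 2, 1, 2 and 1 called members, and without inhibitor replicate 2 or inhibitor replicate 3 there were 5 and 13. In the same order, 7.42%, 5.5%, 5.86%, 6.11%, 13.8% and 8.86% of all probe sets tested were called, against 13.6% with all 6 arrays. Of the members, 0.93%, 0.465%, 0.93%, 0.465%, 2.33% and 6.05% were called. Without vehicle replicate 3, 1 of the 2 calls was a rise, of an Rpl21 probe set. The adjusted p of Rps3 was 0.0583, 0.0581, 0.0574 and 0.0648 without the first 4 of these arrays, that of the called Rplp1 probe set 0.0695, 0.0763, 0.0803 and 0.0582. For Rpsa it was 0.0688, 0.0699 and 0.0659 without vehicle replicate 2, vehicle replicate 3 and inhibitor replicate 1. The Rps4x call held only without inhibitor replicate 2 (adjusted p 0.0460, up to 0.143 otherwise) and the call of the first Rpl36 probe set only without inhibitor replicate 3 (0.0328, up to 0.119 otherwise). All of these changes stayed negative, between -0.18 and -0.31.

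**Figure D3:**
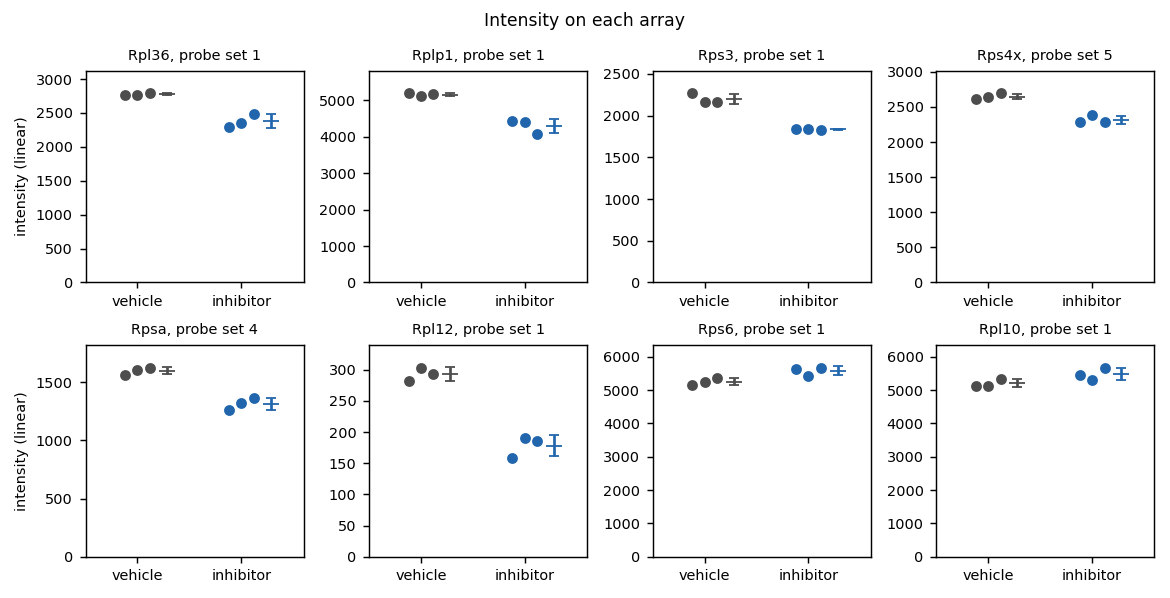
Linear intensity (vertical axis, from 0) on the 3 vehicle and 3 inhibitor arrays for 8 probe sets; points are arrays, and the bar beside them is the mean ± SD. The groups do not overlap for Rpl36, Rplp1, Rps3, Rps4x, Rpsa, Rpl12 and Rps6, while those of Rpl10 overlap, and only the first 6 were called.

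Rps6, the small subunit protein phosphorylated by the S6 kinases, was the gene with the most uniform difference upward, and it is named after its values were seen. Its first probe set gave 5156, 5248 and 5364 with vehicle and 5635, 5424 and 5676 with the inhibitor, a log2 fold change of 0.09. All 8 of its probe sets had every inhibitor array above every vehicle array, with changes from 0.09 to 0.19 and limma adjusted p from 0.0694 to 0.317. None was called. With quantile normalization the 8 changes ran from 0.02 to 0.11 and with median centring from 0.05 to 0.15.

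Other genes that were not called are given by their values, and were likewise picked out afterwards. Rpl34 lay at 0.20 (limma adjusted p 0.141, interval 0.02 to 0.38) and Rpl21 between 0.07 and 0.22 over 9 probe sets. The 6 probe sets of Rpl10 lay at 0.07 to 0.08, but at -0.00 to 0.02 after quantile normalization, so that the direction for this gene depended on scaling. Rpl23a lay between -0.08 and -0.15 over 13 probe sets, with a lowest adjusted p of 0.159. Rpl13 lay between -0.08 and -0.16 over 9 probe sets, with a lowest adjusted p of 0.0732. The 14 probe sets of Rps12, the most of any gene, lay between -0.02 and -0.10.

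Probe sets of 1 gene mostly pointed the same way. Of the 39 genes with several probe sets, 27 had all of them on 1 side of 0, 13 below and 14 above, and the median range within a gene was 0.06. Over genes, the medians ran from -0.72 to 0.20, with 31 below 0 and 28 above. Every probe set was apart downward for 7 genes, Rpl12, Rpl30, Rpl36, Rplp1, Rps27l, Rps3 and Rps4x. Apart upward in every probe set were 2 genes, Rplp2 and Rps6. Of these, Rpl12, Rpl30, Rps27l, Rps3 and Rplp2 have only 1 probe set each. Of all probe sets tested, 17.1% were apart downward and 15.9% upward. The sign of the small gene medians was sensitive to scaling. As deposited 28 genes had a median above 0, after quantile normalization 18 and after median centring 20. In both, 47 of the 59 genes kept their sign.

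**Figure D4:**
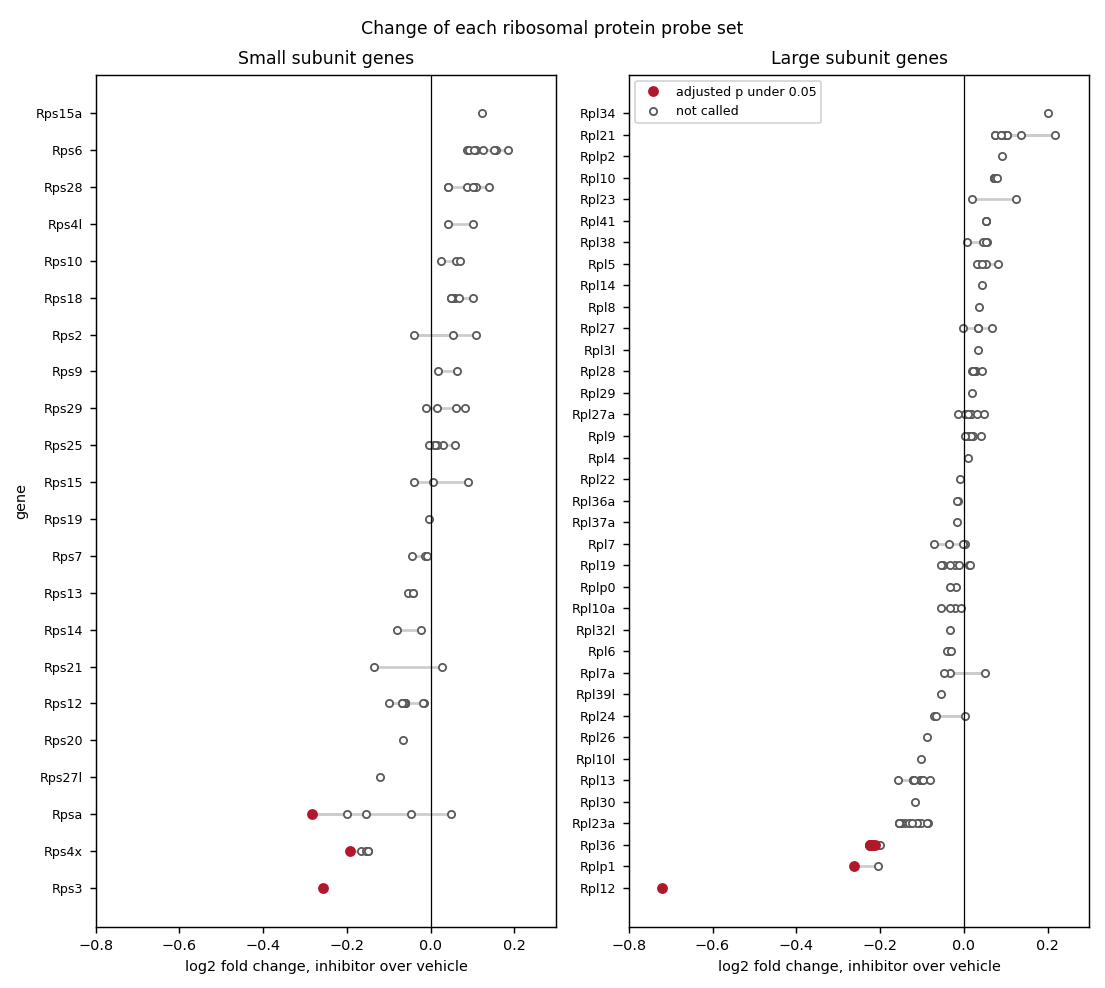
Log2 fold change of inhibitor over vehicle (horizontal axis) of each of the 215 probe sets, by gene (vertical axis, ordered by the gene's median), with small subunit genes on the left and large subunit genes on the right; filled points passed an adjusted p of 0.05. All filled points lie below 0, in 6 genes, and apart from Rpl12 at -0.72 all points lie between -0.28 and 0.22.

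For other genes, also picked out afterwards, the intervals show how much room the arrays leave. Rpl4, which lines the peptide tunnel, gave 4074 to 4221 with vehicle and 4118 to 4196 with the inhibitor, and the 95% interval of its log2 fold change ran from -0.10 to 0.12. Rpl37a gave 2748 to 2828 and 2718 to 2781, with an interval from -0.12 to 0.09. In the 3 probe sets of Rpl6 the intervals together ran from -0.15 to 0.09. In these genes the arrays of both groups overlapped and a change of measured intensity of 1.25-fold lay outside the interval.

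Several other genes had wider intervals. Rps15a gave 747 to 840 with vehicle and 679 to 966 with the inhibitor, so that the inhibitor arrays lay on both sides of the vehicle arrays, and the interval ran from -0.20 to 0.45. Rps14, the small subunit gene known from the 5q deletion of human myelodysplastic syndrome, lay at -0.02 and -0.08 in 2 probe sets with intervals from -0.34 to 0.20. Rps21 had 2 probe sets at 0.03 and -0.13, with intervals from -0.42 to 0.29. The 7 probe sets of Rps28 lay between 0.04 and 0.14 and the 7 of Rps18, a protein of the head of the small subunit, between 0.05 and 0.10. Rpl24 of the large subunit, at 0.00 to -0.07 in 3 probe sets, was similarly uncertain, with intervals from -0.34 to 0.29.

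Groups of ribosomal proteins with a known position or role gave few calls. Of all probe sets tested, 13.6% were called. Of the 5S particle, Rpl5 was measured alone, and its 5 probe sets lay between 0.03 and 0.08 with none called; its 95% intervals reached from -0.14 to 0.27. Among the 10 measured genes whose human counterparts are mutated in Diamond-Blackfan anemia, an inherited failure of red cell production, 0 of 30 probe sets were called, with a median of 0.04 (over all probe sets tested, 0.007). Rps19, the gene most often mutated in that disease, lay at -0.00 (interval -0.20 to 0.20). Of the genes lining the peptide tunnel and its exit, 0 of 27 probe sets were called, with a median of -0.08. Of these, 13 belong to Rpl23a; over the 6 genes the median of the gene medians was -0.02, from -0.13 for Rpl23a to 0.05 for Rpl38.

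The tissue-restricted or regulated paralogues were not called either. Rpl10l, a copy best known from the testis, had a mean intensity of 46.3 ± 9.06 (SD, n = 3) with vehicle and of 42.9 ± 5.81 with the inhibitor. Rpl3l, the striated muscle copy, gave 52.8 ± 2.54 and 54.0 ± 1.39. Rpl39l gave 84.4 ± 15.4 and 83.9 ± 27.8. These are among the dimmest members, and their log2 fold changes were -0.10, 0.03 and -0.06. The intervals were wide for Rpl10l (-0.47 to 0.27) and Rpl39l (-0.69 to 0.58), while that of Rpl3l ran from -0.10 to 0.17. Rps4l had 2 probe sets at 0.04 and 0.10. Rps27l, a copy that p53 induces, was bright, at 2717 ± 29.8 with vehicle and 2503 ± 147 with the inhibitor (log2 fold change -0.12, interval -0.26 to 0.02, limma adjusted p = 0.241).

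Probe sets that carry several symbols were kept apart because they cannot be assigned to 1 gene. Among 233 of them with at least 1 symbol meeting the rule, 3 were lower and 0 higher (1.29%), and their median was 0.003. Fau, Rpl7l1 and Rps3a1, ribosomal proteins or relatives whose symbols fall outside the rule, lay at -0.07, -0.08 and 0.02, with none called.

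Other genes tied to ribosomal proteins were taken from lists, with 1 probe set per gene. Over all probe sets tested, 6.54% were called lower and 7.02% higher. Of 18 further genes whose mRNAs carry a TOP motif, mostly translation factors, 1 fell and 0 rose, with a median of -0.03. It was Eef1d, a subunit of the elongation factor that reloads eEF1A with GTP, which gave 497, 484 and 509 with vehicle and 341, 392 and 378 with the inhibitor (log2 fold change -0.43, limma adjusted p = 0.00873). Of 14 genes that control the synthesis of ribosomal proteins, 1 fell and 0 rose. This was Myc, at 2424, 2334 and 2385 with vehicle and 1900, 1811 and 1895 with the inhibitor (log2 fold change -0.35, limma adjusted p = 0.00592). Both had groups apart and were called in 22 of 22 alternative settings.

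Genes for escorts of ribosomal proteins fell in part. Of 14 genes for chaperones and assembly partners, 6 were called lower and 0 higher, with a median log2 fold change of -0.23. The list includes Nap1l1, also counted among the TOP genes, and Rpl7l1, also counted among the relatives outside the rule. Neither was called. The share called lower over all probe sets tested was 6.54%. Heatr3, which helps to import RPL5, gave 508, 543 and 515 with vehicle and 378, 404 and 397 with the inhibitor (log2 fold change -0.41, limma adjusted p = 0.00488). This rests on its brightest probe set: the mean of its probe sets lay at -0.12, with an adjusted p of 0.214. Pdcd2l, a relative of the RPS2 chaperone PDCD2, gave 366, 371 and 375 with vehicle and 300, 280 and 281 with the inhibitor (-0.37, adjusted p = 0.00574). Sdad1 lay at -0.30 and Nmd3, the export adaptor of the large subunit, at -0.30, with adjusted p of 0.0124 and 0.0143. The other called genes were Rpf2 at -0.33 and Grwd1 at -0.32. Groups were apart in all 6. Without vehicle replicate 2, vehicle replicate 3 or inhibitor replicate 1 only 2 of the 14 were called, and without the other arrays 5 or 6. Whether the difference between these genes and the ribosomal protein genes exceeds their spread was not tested.

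Of 7 genes of p53 surveillance 1 rose, Zmat3, at 139, 163 and 148 with vehicle and 181, 199.3 and 199.7 with the inhibitor (log2 fold change 0.37, limma adjusted p = 0.0236). Its adjusted p exceeded 0.05 under 6 of 22 alternatives, reaching 0.0858, among them both other scalings and the fits without vehicle replicate 1, vehicle replicate 3, inhibitor replicate 2 and inhibitor replicate 3. Sesn2, Phlda3 and Ccng1, further p53 targets, lay at 0.11, 0.13 and 0.09 with all inhibitor arrays above all vehicle arrays, and Rps27l at -0.12 with all below. Their limma adjusted p ran from 0.216 to 0.302, and none was called. Mdm4 and Mdm2, inhibitors of p53, lay at -0.05 and 0.06 with overlapping groups. The share called higher over all probe sets tested was 7.02%.

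Several small nucleolar RNAs (snoRNAs), which guide modifications of ribosomal RNA, are cut out of introns of ribosomal protein pre-mRNAs, so that the same transcript yields both. Of 22 probe sets for 19 such snoRNAs, 15 fell and 0 rose, with a median log2 fold change of -0.43. Of all probe sets tested, 6.54% were called lower. In 10 called cases the host gene had a member probe set, and in 7 of these no probe set of the host was called. Snora21 gave 841, 851 and 889 with vehicle and 338, 378 and 327 with the inhibitor (log2 fold change -1.31, limma adjusted p = 0.00012). Its host Rpl23 had 2 probe sets at 0.02 and 0.12. Snord42b lay at -0.57 beside its host Rpl23a, between -0.08 and -0.15. Snora69 lay at -0.62, and its host Rpl39 has no member probe set. Snora3, Snord16a and Snord15b were picked out after their values were seen. Snora3 lay at -0.55 beside a host, Rpl27a, between -0.01 and 0.05, and Snord16a at -0.35 beside Rpl4 at 0.01. In Rps3 the snoRNAs Snord15a and Snord15b lay at -0.57 and -0.36 and the mRNA at -0.26. Snord33 and Snord35a fell by 0.95 and 0.64 on the log2 scale, and their host Rpl13a has no member probe set. The number called was 6 without vehicle replicate 2, 7 without vehicle replicate 3 and 8 without inhibitor replicate 1. It was 9 without inhibitor replicate 3, and 11 and 14 without the remaining arrays. In each of these fits Snora21, Snord33, Snord35a and Snord15a were called. The call of Snord15a, which is dim, was lost with a floor of 64. The difference between snoRNA and host was not tested. Since snoRNAs of other host genes were not counted here, these falls are not shown to be particular to ribosomal protein hosts.

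**Figure D5:**
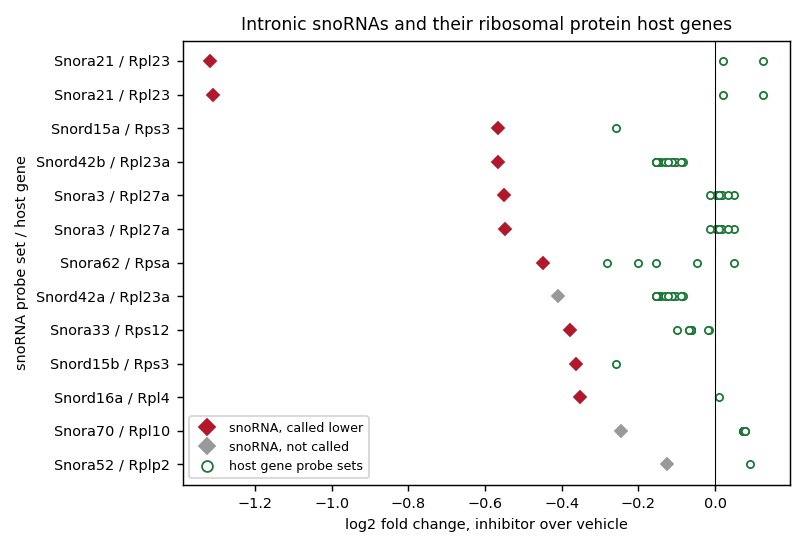
Log2 fold change of inhibitor over vehicle (horizontal axis) of 13 snoRNA probe sets (diamonds, dark when called lower) and of all member probe sets of the gene whose intron holds the snoRNA (open circles). Both Snora21 probe sets are near -1.31 and their host Rpl23 is at 0.02 and 0.12.

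Markers of other states moved beside these values. For comparison, 7.02% of all probe sets tested were called higher and 6.54% lower. Monocyte and macrophage markers rose in 12 of 15 genes, with summed intensities from 12296 to 12731 with vehicle and from 21994 to 23535 with the inhibitor; Gpnmb, a lysosomal glycoprotein of macrophages, lay at 1.78. Neutrophil markers rose in 4 and fell in 4 of 12 genes. Proliferation markers were called lower in 3 of 13 genes, Birc5, Mcm3 and Mcm2 at -0.24, -0.25 and -0.20, and the list's median was -0.14. Cdk1, Rrm2, Aurkb, Plk1, Tyms and Mcm5 lay between -0.11 and -0.23 with all inhibitor arrays below all vehicle arrays, and were not called. In Top2a, Ccna2 and Pcna the groups overlapped. Mki67, picked out after its values were seen, lay at 0.17 with all inhibitor arrays above all vehicle arrays (limma adjusted p = 0.0685). No fit without vehicle replicate 1, 2 or 3, or without inhibitor replicate 1 or 3, called Birc5, Mcm3 or Mcm2. None of 8 T cell, 7 B cell, 5 erythroid and 8 fibroblast markers was called by limma. The part of these markers in the members' values was not tested, and in bulk RNA fewer cells of a type and less RNA per cell cannot be told apart.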

How the data were processed

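Probe set values came from the deposited table, which holds intensity values on a linear scale. Per the submitters' processing notes the authors used Affymetrix Expression Console (version, algorithm and normalization not given in the sources used here). Values under 16 (5.95% of the table) were set to 16, which understates changes of dim probe sets, and log2 of the deposited intensity was taken without rescaling. Probe sets were named through the platform annotation: 21789 had 1 symbol, 1621 several and 12102 none. Each probe set with 1 symbol was tested singly, except 113 that lay at this floor on every array. A 2-sided limma fit of inhibitor against vehicle without covariates (version 3.58.1, R 4.3.3) gave p-values, which were adjusted by Benjamini-Hochberg over 21676 probe sets. The fit was tested on simulated data. Intervals are 95% limma intervals, and SD are of intensities.

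Probe sets were named in the text by rule: the up to 10 per direction with the smallest p among called ones with groups apart, the 5S, stalk and paralogue genes, genes called in part, and the 4 smallest p of each other list (8 for snoRNAs). Not all genes that this rule picks are printed, and any other gene in the text was chosen after its values were seen. The members, lists and tests were chosen with earlier results of these data known. snoRNA hosts were checked by RefSeq coordinates, and promoters are those of RefSeq (GRCm38.p6). Alternatives were other scalings, floors, filters, gene summaries, variance models, a block, a stricter threshold and leaving out each array. The number of arrays limits the precision.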

Additional observations from a re-analysis of the deposited data

How the results depend on the processing

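The members' median change moved by less than the SD between arrays under every alternative run, from -0.03 to 0.03, as did the small minus large subunit difference, from -0.01 to 0.05, so neither sign is settled. The counts depended on the settings. The count over all probe sets and over members was 992 and 1 at an adjusted p under 0.01, 1916 and 4 with median centring (Rpl12, Rplp1, Rps3 and Rpsa), 4521 and 43 with an intensity trend and robust prior (13 members higher, 30 lower), and 4677 and 26 with array weights. Members called were 20 (9.43%) beside 3666 in all (22.6%) with the 25th percentile filter, and 27 beside 4221 with the median filter. They were 20 (9.43%) beside 3664 (20.0%) with a floor of 64, and 4 (1.86%) beside 2533 (7.35%) with all probe sets of the table. With 1 value a gene, 4 of 59 member genes (6.78%) were called. Of all 19847 genes, 2749 (13.9%) were called by the brightest probe set and 2687 (13.5%) by the mean. Leaving out 1 array gave 1191 to 2982 calls in all and 1 to 13 among members. With the trend the share of members called, 20.0%, was near the 20.9% of all probe sets, and the 13 rises were probe sets of Rps6, Rpl21, Rpl34 and Rps15.

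Whether the replicate numbers pair the samples was not settled. Deviations from the group means correlated at 0.24, 0.13 and -0.09 for the same numbers, and at -0.28 to 0.17 for different numbers. These ranges overlap, so they cannot decide it. With the replicate number as a block, 1773 probe sets and 2 members, of Rpl12 and Rpsa, were called. Counting identical values once gave 12 calls among 203 members, and counting in probe sets with several symbols gave 15 among 448; both were chosen after seeing the data. Over the named probe sets and genes, 0 called changes turned direction. The cause of these shifts was not tested. Brightness over background could not be judged, since the table used here holds no detection calls.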
